A study of Mus musculus with 28 samples.

Results

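Tceal5, Obp2a, Syt8 and Defb1 are 4 mouse genes that were at 0 to 2 counts (Tceal5, Obp2a, Syt8) or low but not silent (Defb1) in a control tissue and were strongly expressed in the matching tissue of mice with human APOBEC3B (A3B) switched on. The pattern is that of the livers and pancreases described here as set 2, and they are 4 of 35858 genes quantified in those tissues. The genes were chosen by their estimated counts and TPM (a transcript share corrected for length) in A3B against control samples of set 2, so their set 2 levels are given as a description, with no test. A further 12 libraries of liver and lung, called set 1, are other samples, and the genes are tested there. Whether set 1 values were also in view when the genes were named is not known, so the set 1 p-values may not be independent of the choice.

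The mice carried a human APOBEC3B cDNA fused to turboGFP under a tetracycline-responsive promoter, and A3B mice also carried CAGs-rtTA3, a ubiquitously driven transactivator that switches the cDNA on in the presence of doxycycline. RNA came from whole tissue of young adult mice, 4 weeks old when doxycycline began, and the labels state that doxycycline was given in the food. In set 2, 6 A3B livers and 6 A3B pancreases were compared with 2 control livers and 2 control pancreases, all labelled with 10 days of treatment. In set 1, 3 A3B livers and 3 A3B lungs were compared with 3 control livers and 3 control lungs. The labels give 14 days for A3B livers 23 and 28, 10 days for A3B liver 70 and the A3B lungs, and 15 days for the set 1 controls. Control genotypes are labelled A3B alone, except control liver 11 and control pancreases 45 and 168, labelled A3B + CAGS-rtTA, and control lung 87, labelled CAGs. A3B tissues are labelled A3B + CAGS-rtTA, except pancreases 44 and 137, labelled A3B alone. Groups follow the titles throughout. The study's methods, like the labels, describe controls fed doxycycline, but one of its figure legends calls a pair of control animals undosed, so whether diet also differed in set 2 is not settled.

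The 4 genes have unrelated products. Tceal5 belongs to the transcription elongation factor A-like family, small nuclear proteins whose genes sit with the related Bex genes in a cluster on the X chromosome, and which are best known from the nervous system. Obp2a encodes an odorant-binding protein of the lipocalin family, secreted carriers of small hydrophobic molecules. Syt8 encodes a synaptotagmin, a membrane protein with paired C2 domains of the kind that acts in vesicle exocytosis. Defb1 encodes beta-defensin 1, a cationic antimicrobial peptide that epithelia such as those of the kidney and airways secrete constitutively.

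On GRCm38 with GENCODE gene models, Tceal5 (ENSMUSG00000054034.10) lies on the minus strand of chromosome X from 136200948 to 136203876. Obp2a (ENSMUSG00000062061.3) is on the plus strand of chromosome 2 from 25700043 to 25703326. Syt8 (ENSMUSG00000031098.18) is on the plus strand of chromosome 7 from 142434850 to 142440396. Defb1 (ENSMUSG00000044748.8) is on the plus strand of chromosome 8 from 21776599 to 21795185. All are protein-coding, so nothing of position was common to the 4.

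Promoter windows from RefSeq (GRCm38.p6) were found for 3 of the 4 genes, and Defb1 is named only. They are shown because Obp2a and Syt8 were both high in the A3B pancreases. Within that group, pancreases 49 and 153 were the lowest for Obp2a (185 and 400 counts) and the highest for Syt8 (818 and 1253 counts). Where a gene has several RefSeq starts, the window belongs to the one nearest the start of its most counted transcript. Each is printed on the gene's own strand, 5′ to 3′, up to the last base before the first annotated start of the gene in either annotation that the window reaches. The windows lie at chrX:136203885-136204134 for Tceal5, chr2:25699824-25700042 for Obp2a and chr7:142434727-142434849 for Syt8. Capitals mark matches to the motifs searched.
Tceal5: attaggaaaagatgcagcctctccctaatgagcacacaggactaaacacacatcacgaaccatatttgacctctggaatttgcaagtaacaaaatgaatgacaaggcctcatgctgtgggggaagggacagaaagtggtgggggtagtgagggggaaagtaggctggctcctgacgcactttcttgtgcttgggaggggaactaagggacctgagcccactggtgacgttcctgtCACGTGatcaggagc
Obp2a: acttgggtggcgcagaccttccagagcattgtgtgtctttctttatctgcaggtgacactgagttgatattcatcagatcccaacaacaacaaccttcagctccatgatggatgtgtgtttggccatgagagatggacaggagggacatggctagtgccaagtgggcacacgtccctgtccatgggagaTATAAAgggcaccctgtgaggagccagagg
Syt8: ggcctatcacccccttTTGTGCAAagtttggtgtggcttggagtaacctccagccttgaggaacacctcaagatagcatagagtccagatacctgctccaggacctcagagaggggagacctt

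Motifs were searched on both strands of the 300-base windows, which run from 250 bases before to 50 after the RefSeq start. The 6 motifs were the TATA box searched as TATAAA, the CCAAT box, the AP-1 site searched as TGANTCA, the STAT site, the C/EBP site searched as TTGCNNAA and the E-box searched as CACGTG. The STAT site was searched as TTCNNNGAA, and matches of different motifs did not overlap in these windows. Tceal5 held a CACGTG starting 15 bases before the start, a motif present in 7.15% of 32851 promoters. Obp2a held a TATAAA, present in 13.6% of promoters, and Syt8 held a TTGCNNAA match, present in 10.8%. None of the 6 motifs was shared by any pair of these 3 windows. The windows held 5 CpG in Tceal5, 2 in Obp2a and 3 in Syt8, against a median of 7 over all promoters.

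The set 2 libraries held between 65161064 and 118976013 estimated counts. Counts were scaled to CPM (counts relative to library size) by the trimmed mean of M-values (TMM), which assumes that most genes do not change. In the pancreas this scale was far from the library totals, with TMM factors of 0.21 and 0.443 in the controls and 1.3 to 1.79 in the A3B samples, so ratios on both scales are given there. The edgeR fit called 3.66% of 17365 genes in the liver and 31.9% of 19123 genes in the pancreas at an adjusted p under 0.05. Each A3B sample was above both controls for 15.0% of genes tested in the liver and for 25.1% in the pancreas. The same separation was seen in the liver for Tceal5 and Defb1 and in the pancreas for Obp2a, Syt8 and Defb1, and nothing is read from it because these values chose the genes. In set 1, the row for the human transgene lay between 0.0928 and 0.526 TPM in controls, between 705 and 1705 TPM in A3B livers and between 90.6 and 281 TPM in A3B lungs.

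Tceal5 appeared in the A3B liver. Its estimated counts were 2 in control liver 45 and 0 in control liver 168. The 6 A3B livers ranged from 190 in mouse 48 through a median of 1176 to 2283 in mouse 137. Every A3B liver was therefore far above both controls. On the TMM scale the ratio of means was 1233, with an exact Poisson interval of 341 to 10182 that covers counting error in the 2 control counts only. In TPM, A3B livers held 23.7 ± 18.2 (SD, n = 6). The pancreas gave no such rise. By their numbers, A3B mice 44, 49, 125, 137 and 153 and both control mice gave both tissues. The 6 A3B pancreases held 1 to 24 counts of Tceal5, and the control pancreases held 12 and 0. These counts overlap, the ratio was 0.25 on the TMM scale and 1.9 on library totals, and no difference was detectable at this depth.

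Obp2a appeared in the A3B pancreas. Control pancreas 45 had 1 estimated count and control pancreas 168 had 0. The A3B pancreases ranged from 185 in mouse 49 and 400 in mouse 153 to 13340 in mouse 53, with a median of 4124. The spread among A3B pancreases was the widest of the genes in the tissue where it was high, with an SD of 2.45 on the log2 scale of TMM-scaled CPM against 0.642 for Syt8. The ratio of means was 1414 on the TMM scale (exact Poisson interval 254 to 55862, from a single control count) and 10062 on library totals. In TPM the A3B pancreases held 105 ± 102 (SD, n = 6), against 0.01 ± 0.0142 (SD, n = 2) in controls.

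In the liver Obp2a went the other way in several animals. Control liver 168 had 111 counts and control liver 45 had 6, while the A3B livers had 0, 0, 1, 9, 10 and 33. The groups overlapped, with 3 of 6 A3B livers below both controls and none above both, and the ratio of means was 0.142. Set 1 gave a similar picture, with 19.9 TPM in control liver 11, a listed 0 in control livers 91 and 92, 0.381 TPM in A3B liver 28 and a listed 0 in A3B livers 23 and 70. Summed TPM of 4 Y-linked genes partly moved with these values, across sets that were quantified separately. Y-linked transcripts reached 10 TPM in 5 of the 14 livers, where Obp2a lay between 0.247 and 19.9 TPM. In the other 9 livers Obp2a was at most 0.381 TPM and was listed at 0 in 6. That highest value, in A3B liver 28 of set 1, exceeded those of Y-expressing A3B livers 125 (0.288 TPM) and 137 (0.247 TPM) of set 2. Within set 2 the lowest Y-expressing liver (0.247 TPM, A3B 137) was above the highest of the others (0.131 TPM, control 45). Among the Y-expressing livers of set 2, control 168 (2.38 TPM) was higher than the 3 A3B livers. The labels give no sex, these groups were formed after the values were seen, and no test was made.

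**Figure D1:**
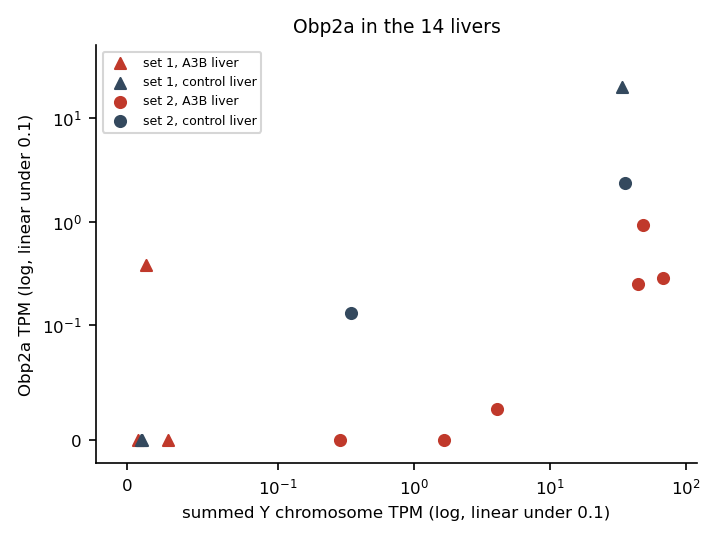
Obp2a TPM (vertical axis) against the summed TPM of 4 Y-linked genes (horizontal axis) in 14 livers, both on log axes that are linear under 0.1. Red marks A3B and dark blue control livers, circles set 2 and triangles set 1, and the highest points are control liver 11 (19.9 TPM) and control liver 168 (2.38 TPM).

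Syt8 also appeared in the A3B pancreas, with less spread than Obp2a (SD 0.642 against 2.45 on the log2 scale of TMM-scaled CPM). Both control pancreases had 0 estimated counts. The A3B pancreases ranged from 374 in mouse 44 through a median of 556 to 1253 in mouse 153. Taking 3 counts in each control library as the limit that a count of 0 allows, Syt8 was at least 47.5-fold higher on the TMM scale and at least 254-fold higher on library totals. In TPM the A3B pancreases held 14.2 ± 6.64 (SD, n = 6). In the liver both controls were at 0 and the A3B livers had 0, 1, 1, 3, 5 and 19 counts. Only livers 49 and 44 exceeded 3 counts. The A3B mean was 1.33 times the limit of 3 counts per control library. Without liver 44 the mean fell under that limit, so no rise is read in the liver. The liver with 19 counts, from mouse 44, also carried 218 TPM summed over 10 markers of pancreatic acinar cells, against 45 and 1.47 in the control livers. The highest acinar sum, 460 TPM, was in A3B liver 153, which had 3 Syt8 counts. The part of these transcripts in the liver values was not tested.

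Defb1 was higher in the A3B samples of both tissues, from controls that were low but not silent. Control livers 45 and 168 had 94 and 50 counts, and the A3B livers ranged from 2697 in mouse 153 through a median of 7619 to 10045 in mouse 125. Control pancreases 45 and 168 had 109 and 120 counts, and the A3B pancreases ranged from 5132 in mouse 44 through a median of 10021 to 36456 in mouse 125. The ratio of means was 100.1 in the liver. In the pancreas it was 25.9 on the TMM scale and 135 on library totals. A3B livers held 158 ± 60.2 TPM (SD, n = 6). The A3B pancreases, at 252 ± 214 TPM (SD, n = 6), overlapped them. Mouse 125 was highest in both tissues, 306 CPM in the pancreas and 127 CPM in the liver on the TMM scale.

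**Figure D2:**
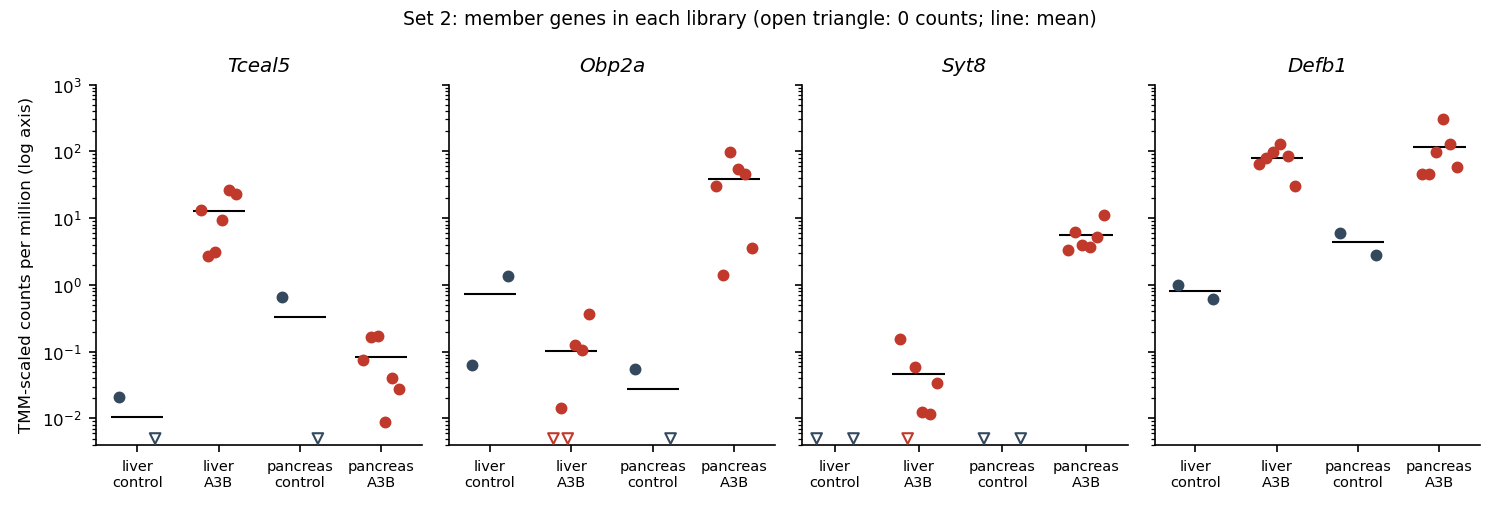
TMM-scaled CPM (log axis) of Tceal5, Obp2a, Syt8 and Defb1 in each set 2 library, with control samples in dark blue, A3B samples in red, means as lines and 0 counts as open triangles at the foot. Tceal5 is high in A3B liver only, Obp2a and Syt8 in A3B pancreas only, and Defb1 in both A3B tissues.

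In TPM, which corrects for transcript length, the 4 genes stood in different orders in the A3B tissues of set 2. In the liver Defb1 (158 TPM) was followed by Tceal5 (23.7 TPM), and in TPM the lowest Defb1 liver (61.4) was above the highest Tceal5 liver (46.4). Obp2a and Syt8 were at 0.248 and 0.199 TPM, with SDs larger than these means. In the pancreas Defb1 (252 TPM) and Obp2a (105 TPM) overlapped widely. Syt8 (14.2 TPM) lay within the range of Obp2a (4.83 to 280 TPM), and Tceal5 was at 0.172 TPM. These orders are descriptions of genes chosen for their levels.

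Leaving out A3B pancreases 44 and 137, whose genotype label is A3B alone, moved the ratios little. The TMM-scale ratio was 1432 for Obp2a, at least 53.1 for Syt8 and 28.9 for Defb1 without them, and this alternative was added after the data were seen. Obp2a had 3442 counts in pancreas 44 and 4807 in pancreas 137, both near the median of the A3B group.

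The question in set 1 was whether the genes also differ in other livers and in another tissue. Set 1 values are TPM, tested with limma on log2(TPM + 1) over genes averaging 1 TPM or more. With 3 samples a group, the exact permutation test of a single gene cannot go below p = 0.1. In the liver, limma called 7.93% of 11507 genes, 6.07% higher and 1.86% lower, and every A3B liver was above every control for 28.5% of them. Of the 4 genes, Tceal5, Defb1 and Obp2a passed the filter on low values and Syt8 did not. Tceal5 passed it through the A3B livers, since no control reached 1 TPM.

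Tceal5 was higher in set 1 A3B livers, a difference that passed the test only among genes kept by the filter. Controls 11, 91 and 92 were at 0.0967, 0.153 and 0.331 TPM, and A3B livers 23, 28 and 70 were at 18.2, 7.6 and 3.56 TPM. All 3 A3B livers were above all 3 controls. The difference was 2.93 ± 0.508 (SE) on the log2(TPM + 1) scale, with a limma adjusted p of 0.0268, and the exact permutation p was 0.1, the smallest possible. The ratio of mean TPM was 50.4. The log2(TPM + 1) scale understates the change of so low a gene, and with a pseudocount of 0.1 the difference was 4.85. Without control liver 91, control liver 92 or A3B liver 23 the limma adjusted p was 0.127, 0.122 or 0.0589.

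Defb1 rose in set 1 A3B livers as well. Controls 11, 91 and 92 were at 13.6, 30.2 and 6.87 TPM, and A3B livers 23, 28 and 70 were at 591, 2645 and 253 TPM. The groups did not overlap. The difference was 5.58 ± 0.875 (SE) on the log2(TPM + 1) scale, with a limma adjusted p of 0.0223 and an exact permutation p of 0.1. Without control liver 91, control liver 92 or A3B liver 23 the limma adjusted p was 0.0825, 0.118 or 0.074. Without the filter on low values neither gene passed, with limma adjusted p of 0.0717 for Tceal5 and 0.0702 for Defb1. Defb1 was not near silent in the control livers of either set, and its levels are not compared across the sets, which were quantified separately.

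The lung differed from the liver for Tceal5. Control lungs 87, 88 and 91 were at 1.65, 1.55 and 1.21 TPM, and A3B lungs 69, 70 and 74 were at 0.725, 1.42 and 0.864 TPM. The difference of -0.31 ± 0.157 (SE) did not pass (limma adjusted p = 0.156, where 36.8% of 13651 genes were called, 16.1% higher and 20.8% lower, and 23.3% had every A3B lung above every control). The A3B effect in the liver minus that in the lung was 3.25 ± 0.562 (SE) for Tceal5, with a limma adjusted p of 0.00815, where 10.7% of 13477 genes were called. Mice 70 and 91 gave both tissues, and with the mouse as a block the difference was 2.85 (limma adjusted p = 0.00588). It passed with each of the 12 samples left out in turn, with adjusted p up to 0.0282. Control livers averaged 0.194 TPM, A3B lungs 1 TPM and control lungs 1.47 TPM. Tceal5 thus met the filter on low values only through the A3B livers, and this difference was not tested without the filter.

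Defb1 was also higher in 2 of 3 A3B lungs. Control lungs were at 0.605 TPM in mouse 87 and listed at 0 in mice 88 and 91, and A3B lungs 69, 70 and 74 were at 0.502, 18.5 and 14 TPM. A3B lung 69 was thus at the level of control 87. Defb1 met the filter on low values through the A3B lungs, since no control lung reached 1 TPM. The difference was 2.7 ± 1.06 (SE) with a limma adjusted p of 0.102. Without A3B lung 69, the lowest A3B lung, it was 3.87 with a limma adjusted p of 0.00511. Leaving out any other single lung gave a limma adjusted p of 0.162 to 0.251. The transgene was at 90.6 TPM in lung 69, 281 TPM in lung 70 and 115 TPM in lung 74. Summed TPM of 10 hepatocyte markers was 1081 in lung 70 and 935 in lung 74 against 50.8 in lung 69, and was 32.9, 1121 and 98.8 in control lungs 87, 88 and 91. The part of transgene level and hepatocyte transcripts in the lung values was not tested. The A3B effect in the liver minus that in the lung was 2.89 ± 1.44 (SE) for Defb1 and did not pass (limma adjusted p = 0.205). With a pseudocount of 0.1 this difference was 0.868, and with the mouse as a block it was 1.71.

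Syt8 stayed near 0 in set 1, and so did Obp2a except in control liver 11 (19.9 TPM). Obp2a differed by -1.31 ± 1.11 (SE) in the liver (limma adjusted p = 0.43), with control liver 11 the one sample above 1 TPM, and was at most 0.0514 TPM in any lung. Syt8 was at most 0.0159 TPM in any liver and 0.0599 TPM in any lung. In the lung each A3B sample was above each control for Syt8 (exact permutation p = 0.1), at levels under 0.06 TPM, and limma without the filter gave an adjusted p of 0.148. Set 1 holds no pancreas, so the levels of Obp2a and Syt8 there have no check in other animals.

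**Figure D3:**
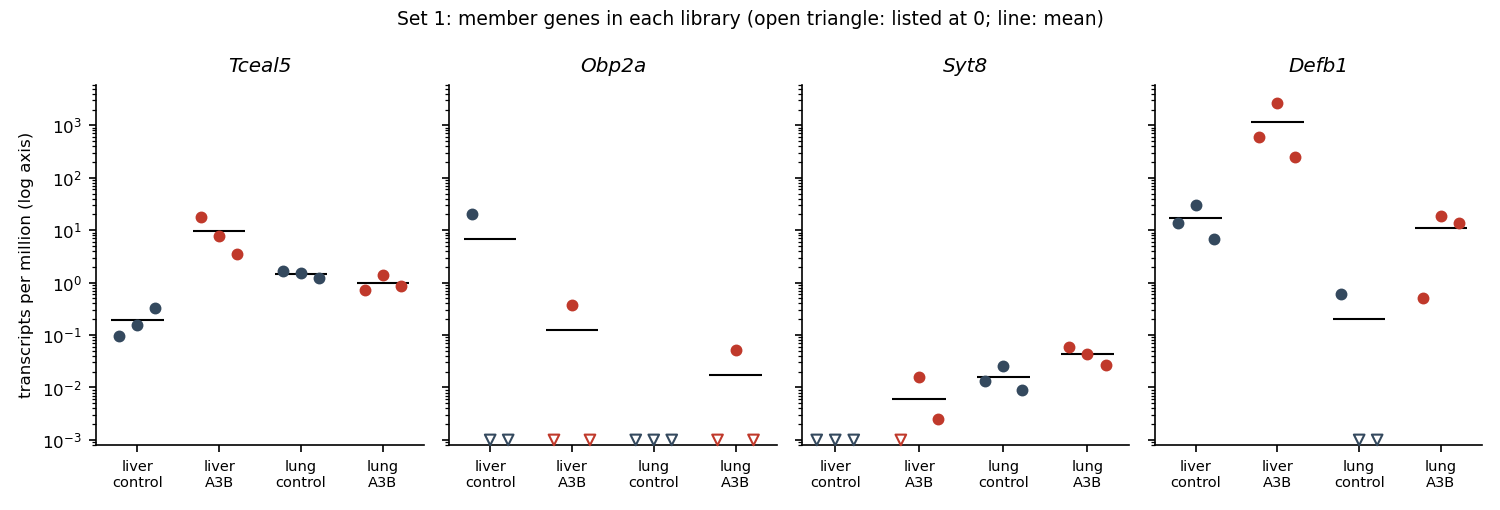
TPM (log axis) of the 4 genes in each set 1 library, with control samples in dark blue, A3B samples in red, means as lines and values listed at 0 as open triangles at the foot. Tceal5 and Defb1 are separated in the liver, A3B lung 69 sits with the controls for Defb1, and control liver 11 is the highest for Obp2a (19.9 TPM).

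The set 2 files give each transcript, which shows what kind of RNA was counted. Obp2a and Defb1 have 1 transcript each, both coding. Of the Tceal5 counts in A3B livers, 97.2% fell to Tceal5-201. Syt8 was split over more transcripts in the A3B pancreases. Its 5 coding transcripts took 48.1% of the counts, led by Syt8-204 with 24.3% and Syt8-205 with 19.5%. The 6 others took 51.9%, led by the retained-intron transcripts Syt8-209 with 22.3% and Syt8-208 with 16.4%. Each of the 6 A3B pancreases held counts in both kinds. Kallisto divides reads among overlapping transcripts by estimation, so these shares carry that uncertainty.

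**Figure D4:**
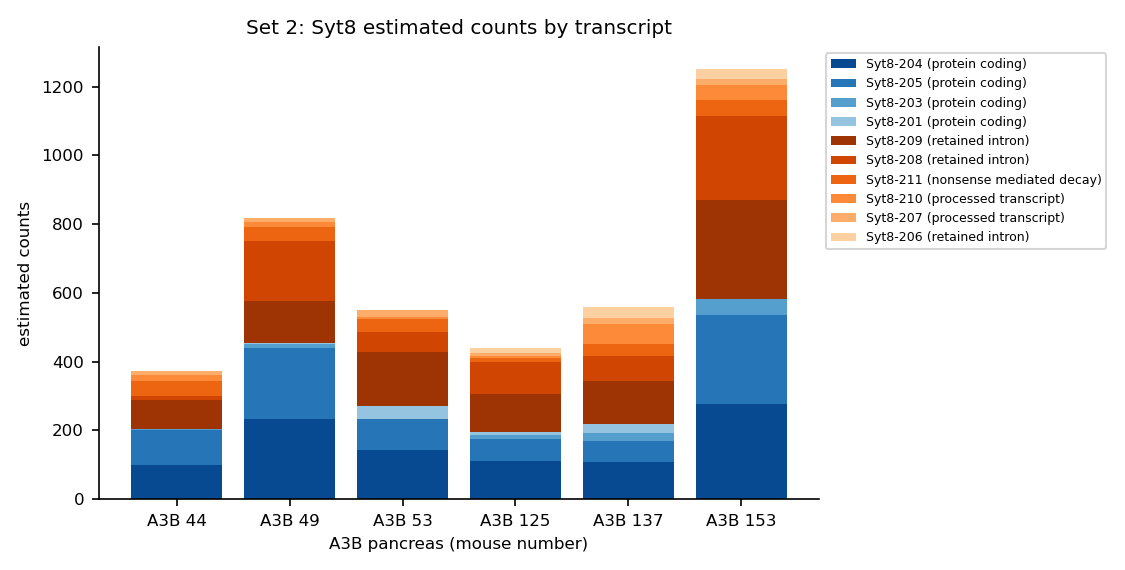
Estimated counts of Syt8 by transcript in the 6 A3B pancreases for the 10 transcripts with counts, stacked so that bar height is the gene total, with coding transcripts in blue and other classes in orange. Totals run from 374 (mouse 44) to 1253 (mouse 153), and both colours are present in each bar.

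Reads of close relatives could be assigned to these genes. Of the 31-base words in Tceal5 transcripts 28.1% also occurred in Tceal3 or Tceal6, and 14% of those in Obp2a occurred in Obp2b, while Syt8 and Defb1 shared none with another gene. Tceal3 reached at most 7.51 counts and Tceal6 at most 2.2 counts in any set 2 liver. These counts come from the same assignment of reads, and its error was not tested. Obp2b averaged 0.357 TPM in A3B and 0.451 TPM in control pancreases.

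Relatives of Tceal5 partly moved in the liver. Of 11 Tceal and Bex genes 7 were tested, and 2 rose and none fell, where 1.26% of genes were called higher and 2.41% lower. Tceal8 changed by 1.63 on the log2 scale (edgeR adjusted p = 0.0379) and Bex4 by 3.42 (edgeR adjusted p = 0.0433). The median over the 7 was 1.63, against 0.21 over all genes tested. In the pancreas 9 were tested, none rose and Bex2 fell by 2.14 (edgeR adjusted p = 0.00427), a direction that turned to 0.18 on library totals.

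Calls among the lipocalins and the synaptotagmins went both ways. Of 13 lipocalins tested in the liver 1 rose and 2 fell, where 1.26% of liver genes were called higher and 2.41% lower. Of 17 in the pancreas 3 rose and 1 fell, where 17.0% of pancreas genes were called higher and 14.9% lower. Lcn2, an iron-siderophore-binding acute-phase protein, rose in both tissues, by 7.21 in the liver (edgeR adjusted p = 0.00525) and by 8.81 in the pancreas (edgeR adjusted p = 0.000264). Mup3, a major urinary protein made by hepatocytes, fell by 6.46 in the liver, and Ptgds fell by 3.08. In the pancreas Apod rose by 5.5, and Lcn8 passed from 0 TPM in both controls to 0.727 to 3.59 TPM in A3B samples. Lcn12 fell by 1.88 on the TMM scale but was at 0.63 on library totals. Of 22 synaptotagmins and related C2 proteins tested in the liver none rose and 2 fell, Syt1 by 4.66 and Syt3 by 3.67. Of 27 tested in the pancreas 6 rose and 3 fell, among them Doc2b, a calcium sensor of exocytosis, which rose by 6.15, and Syt3, which fell by 3.57. Sytl4 fell by 1.36 on the TMM scale but was at 0.96 on library totals. Medians were -0.43 for lipocalins and 0.04 for synaptotagmins in the liver, against 0.21 over all genes, and -0.62 and -0.26 in the pancreas, against 0.09. On library totals 9 of the 17 lipocalins and 18 of the 27 synaptotagmins were higher in the pancreas, where 13473 of 19123 genes tested were higher.

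The vesicle fusion machinery and other antimicrobial genes were mixed. Of 28 exocytosis SNARE genes tested in the pancreas 8 rose and 3 fell (17.0% and 14.9% over all genes), with Stx12 at 1.0 and Stx7 at 1.22. On library totals 23 were higher and 0 lower, where 13473 of 19123 genes tested were higher and 210 lower. Unc13a fell by 1.59 on the TMM scale but stood at 0.67 on library totals. None of 26 passed in the liver by edgeR, and 1 passed by DESeq2. Only 1 of 42 other beta-defensins, Defb42, had enough counts to test, and it passed in neither tissue (edgeR adjusted p = 0.632 in the liver and 0.34 in the pancreas). Of 18 epithelial antimicrobial genes tested in the liver Lcn2 alone rose by edgeR (1.26% higher and 2.41% lower over all genes). The list median was 2.77 against 0.21 over all genes. By DESeq2 4 of 22 rose and 2 fell, where 1290 of 24460 genes were higher and 1061 lower. Of 23 in the pancreas 7 rose and 4 fell, with Reg2, a regenerating islet-derived secreted lectin, at 4.27 and Lcn2 at 8.81, while Lyz1 fell by 2.17 (-0.18 on library totals).

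Genes beside the 4 loci were examined as 3 protein-coding neighbours on each side. Of these 24 neighbours 11 were tested in the liver, where 2 rose and none fell (1.26% and 2.41% over all genes), and 15 in the pancreas, where 4 rose and 2 fell (17.0% and 14.9% over all genes). Both that rose in the liver flank Tceal5, Tceal8 at 28606 bp and Bex4 at 60505 bp from it. Bex1, 10096 bp from Tceal5 on the other side, was at 5.31 ± 1.34 (SE) but did not pass (edgeR adjusted p = 0.059). In set 1 livers Bex4 rose from a mean of 2.5 to 12.3 TPM (limma adjusted p = 0.0402) and Bex1 from 1.01 to 7.39 TPM (limma adjusted p = 0.0384), while Tceal8 did not pass (102 and 228 TPM, limma adjusted p = 0.0882). Tceal9, 41203 bp away, was at 0.38 in set 2 livers (edgeR adjusted p = 0.835).

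Bmyc, 3413 bp beyond the end of Obp2a and on the same strand, rose in the A3B pancreas from 1.44 ± 0.262 (SD, n = 2) to 39.9 ± 15.3 TPM (SD, n = 6). Its log2 change was 2.5 ± 0.568 (SE) on the TMM scale (edgeR adjusted p = 0.0091) and 4.79 on library totals. Bmyc is a short relative of the Myc transcription factors. On the other side Lcn5, Lcn6 and Lcn10 averaged at most 0.374 TPM in A3B pancreases. Obp2b, 33683 bp past Obp2a, did not pass (-2.67 on the TMM scale, edgeR adjusted p = 0.0677) and was at -0.33 on library totals.

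Around Syt8, the upstream genes Ctsd, Gm49369 and Ifitm10 rose in the A3B pancreas by 1.84, 4.55 and 3.79 on the TMM scale. On library totals they were at 4.11, 6.80 and 6.03. Ctsd encodes the lysosomal protease cathepsin D, and Gm49369 overlaps it, so reads of the pair may be divided between them. The troponin genes Tnni2, 1412 bp beyond Syt8, and Tnnt3 fell by 2.45 and 4.82 in the pancreas on the TMM scale. They were at -0.60 and -2.96 on library totals. Both were uneven between the control samples (5.95 ± 7.80 and 4.29 ± 5.54 TPM, SD, n = 2). Of the 6 defensin neighbours of Defb1 none was tested in the liver and 2 in the pancreas, and neither passed (Defa24 edgeR adjusted p = 0.0897, AY761184 edgeR adjusted p = 0.992). The alpha-defensins are near-identical copies, so their counts are uncertain.

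**Figure D5:**
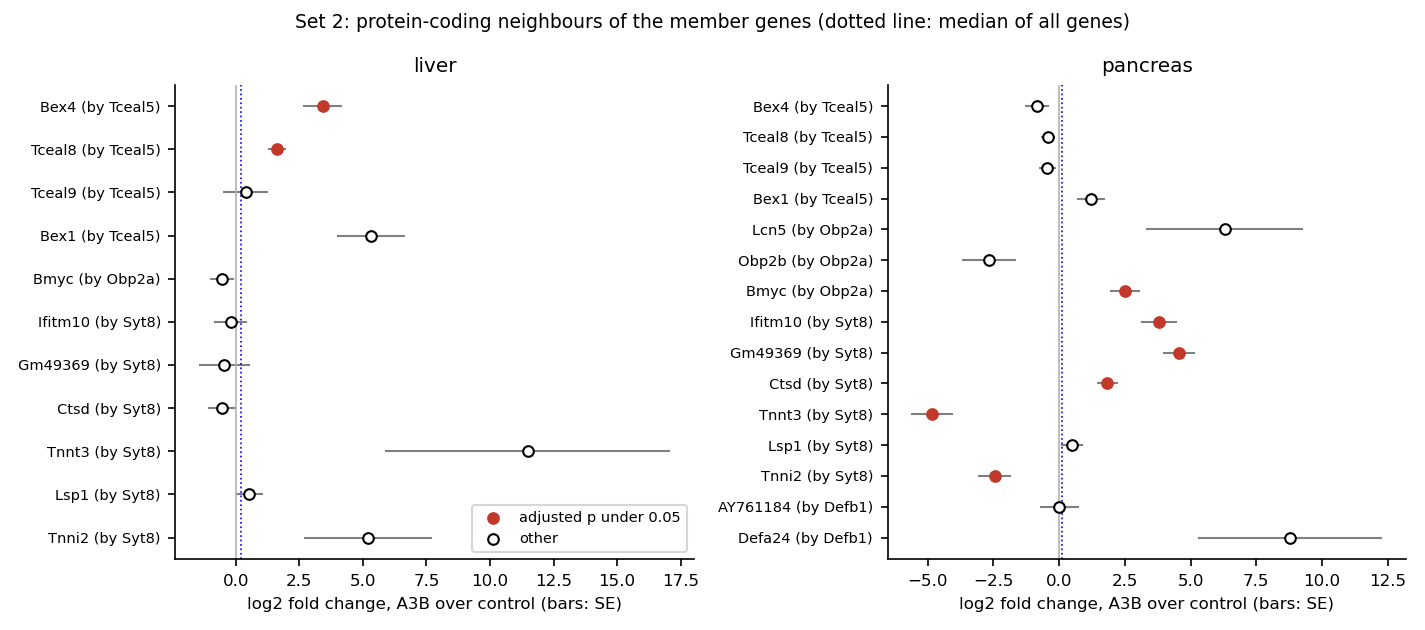
Log2 fold change of A3B over control with its SE for the neighbours that could be tested, in set 2 livers (left) and pancreases (right), red where the adjusted p was under 0.05. The dotted line is the median over all genes (0.21 in the liver and 0.09 in the pancreas), and in the liver both red points are neighbours of Tceal5.

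How rare the pattern is was counted over all genes. In the liver 3 of 35858 genes had at most 3 estimated counts in both controls and at least 30 in each A3B sample. Tceal5 had the highest mean of these at 12.9 CPM, followed by BC005561 at 6.9 and the pseudogene Gm12833 at 0.991. The reverse, at most 3 counts in each A3B liver and at least 30 in both controls, was met by 5 genes. In the pancreas 66 genes met the first pattern and 0 the reverse. The cut-offs are on counts before scaling. With TMM factors of 0.21 and 0.443 in control and 1.3 to 1.79 in A3B pancreases, equal scaled levels give fewer counts in controls. That favours the first pattern, so nothing is read from 66 against 0. The leading 5 by mean CPM were the pseudogene Eif4a-ps4, Obp2a, Hmga1b, Gm20431 and Syt8, in that order. Eif4a-ps4 and Hmga1b resemble other expressed genes, so their counts are uncertain. Defb1 was in neither count because its controls exceeded 3 counts. The places of Tceal5, Obp2a and Syt8 are descriptions, since these values chose the genes.

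Genes with the most similar profile over the 16 set 2 samples were found by Pearson's r of log2(TMM CPM + 0.5) among 13571 genes. The points share tissues and libraries, and most mice gave both tissues, so r mostly reflects group differences and carries no p. For Tceal5 they were E030018B13Rik (0.938), Treh (0.938), which encodes the disaccharidase trehalase, and Slc16a5 (0.927), a monocarboxylate transporter. For Obp2a they were its neighbour Bmyc (0.941), Gm5616 (0.917) and Akr1b8 (0.907), an aldo-keto reductase. For Syt8 they were Slc26a9 (0.985), an epithelial chloride transporter, Omp (0.98) and Stx19 (0.978), a syntaxin. For Defb1 they were Pdk4 (0.952), a kinase that inhibits pyruvate dehydrogenase, Zbtb25 (0.938) and Trp53inp1 (0.935), a stress-induced p53 target. Slc26a9 was at 0.0307 ± 0.0252 TPM (SD, n = 2) in control and 23.9 ± 5.76 TPM (SD, n = 6) in A3B pancreases. E030018B13Rik was at 0.116 ± 0.061 TPM (SD, n = 2) in control and 77.6 ± 76.6 TPM (SD, n = 6) in A3B livers.

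Markers of some other cell types moved with the rises in the pancreas, where 17.0% of all genes tested were called higher and 14.9% lower. In bulk tissue, more cells of a type and more RNA per cell cannot be told apart. Of 12 duct epithelium markers 8 rose and none fell, with a summed level of 184 and 274 TPM in controls and 2912 to 5392 TPM in A3B pancreases. Cldn4 rose by 6.13 and Krt7 by 3.03, and no duct marker was at 0 in any pancreas. Of 10 macrophage markers 7 rose, and of 10 fibroblast markers 7 rose. Fewer passed in other lists of 10, with 2 endothelial and 1 T cell markers higher, 2 neutrophil markers higher and 1 lower, and 2 islet markers lower. No B and plasma cell marker passed, and 1 of 8 adipocyte markers fell. Of 10 acinar markers 8 fell, with sums of 152735 and 161870 TPM in controls and 45249 to 140147 TPM in A3B pancreases. On library totals 12 duct, 8 macrophage and 8 fibroblast markers were higher, and 2 acinar markers were higher and 4 lower. On that scale 13473 of 19123 genes tested were higher. The part of these markers in the Obp2a, Syt8 and Defb1 levels was not tested.

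In the liver few markers passed. By edgeR none of 12 duct, 10 hepatocyte, 10 macrophage or 9 neutrophil markers tested passed, and 1 of 8 acinar markers rose. Over all genes tested 1.26% were called higher and 2.41% lower. By DESeq2 4 neutrophil and 2 duct markers rose, and 1 hepatocyte marker rose and 3 fell. Over all genes 1290 of 24460 were higher and 1061 lower by DESeq2. The median over the neutrophil markers was 2.42, against 0.21 over all genes. Hepatocyte sums were 103653 and 166670 TPM in controls and 45225 to 106593 TPM in A3B livers, so liver tissue was present in each. Duct sums were 227 and 343 TPM in controls and 220 to 1197 TPM in A3B livers. The lowest duct sum, 220 TPM, was in A3B liver 48, which also had the lowest Tceal5 (190 counts), yet the highest, in A3B liver 49, had the next lowest (260 counts). In set 1 A3B livers the duct sums were 687 to 3649 TPM against 596 to 761 TPM in controls, with the highest in A3B liver 28, which also had the highest Defb1. Adipocyte sums, over 8 markers of which 6 were tested and none passed by edgeR, were 30.6 to 266 TPM in A3B and 19 to 23.3 TPM in control livers of set 2, and 142 to 742 TPM against 25.4 to 28 TPM in set 1. Acinar sums in set 1 livers were 9.65 to 29.5 TPM in A3B and 1.53 to 2.98 TPM in control samples. The part of duct, neutrophil, adipocyte and acinar transcripts in the Tceal5 and Defb1 levels was not tested.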

How the data were processed

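RNA was measured in 28 mouse tissue samples. For set 2 (16 samples) the authors deposited estimated counts and TPM per transcript, made with kallisto, and these were summed per gene and rounded for tests. For set 1 (12 samples) the authors deposited 1 table of TPM per gene, made from a read-count matrix in R, so no depth is known there. The builds per the labels are GRCm38 and mm10, and gene models were GENCODE on GRCm38. Between 0.23% and 1.47% of counts were in transcripts absent from those models and were left out, as were 4 rows of repeated names in the TPM table. No columns of the authors' own comparisons were used.

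Groups came from titles. Set 2 was fitted with edgeR 4.0.16 (quasi-likelihood, TMM, filterByExpr, Benjamini-Hochberg) and set 1 with limma 3.58.1 (trend, robust) on log2(TPM + 1), two-sided, at an adjusted p under 0.05. DESeq2 1.42.0, library totals, other filters and pseudocounts, Y expression as a covariate and leaving out samples were alternatives. The fits were tested on simulated data. Members and gene lists were chosen with earlier results of these data known. Named genes were the 4 members, up to 3 called genes of smallest p per list and tissue, all neighbours, 3 most alike genes per member and 5 leading genes per census. Other genes named, such as duct markers, were chosen after their values were seen. Each sample of a tissue came from a differently numbered mouse. Motifs were chosen with the promoter sequences in view. Mouse numbers shared by liver and lung of set 1 (mice 70 and 91) mark the same animal and gave a block correlation of 0.543. Intervals and limits at 0 cover counting error only.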

Additional observations from a re-analysis of the deposited data

Results flagged for a closer look

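In 8 groups of 6 A3B samples, 3 had a value that stood apart from the rest of its group by a screen on unlogged CPM. The screen would mark about 1 in 20 groups by chance if values were normally distributed, which was not checked. Nothing is therefore read from the number of groups marked. The screen compares A3B samples with each other, and is given as a description because these samples also chose the genes. Defb1 in A3B pancreas 125, at 306 CPM on the TMM scale, was separated from the other A3B pancreases by 67.8% of the group's range. Syt8 in A3B pancreas 153, at 11.1 CPM, was separated by 63.8% of the range. Obp2a in A3B liver 153, at 0.371 CPM or 33 counts, was separated by 66% of the range, and this liver also had the highest acinar marker sum, 460 TPM. In set 1 the A3B effect on Tceal5 differed between tissues, with the liver effect exceeding the lung effect by 3.25 on the log2(TPM + 1) scale (limma adjusted p = 0.00815). Tceal5 met the filter of that test only through the A3B livers, and the test was not run without the filter.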

How the results depend on the processing

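The Tceal5, Obp2a, Syt8 and Defb1 levels in set 2 kept their direction in the tissues where they were high under each alternative run. On the log2 scale, library totals in place of TMM gave 0.93 for Tceal5, 13.30 for Obp2a, 7.99 (a lower bound) for Syt8 and 7.07 for Defb1 in the pancreas, and deposited TPM gave 1.11 for Tceal5, 13.35 for Obp2a and 7.06 for Defb1. Leaving out 1 sample at a time gave 8.44 to 10.48 for Tceal5 in the liver and -3.0 to 0.21 in the pancreas. It gave 9.09 to 10.72 for Obp2a in the pancreas and -3.88 to 0.71 in the liver, where the value above 0 was without control liver 168. It gave 5.09 to 6.30 for Syt8 and 4.10 to 5.32 for Defb1 in the pancreas, and 6.35 to 7.02 for Defb1 in the liver. Without control pancreas 45, Tceal5 was at 0.21 and the Syt8 bound was 6.30.

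In set 1, testing without the filter on low values left the liver difference at 2.93 for Tceal5 and 5.58 for Defb1 but with adjusted p of 0.0717 and 0.0702 by limma, with unadjusted p of 0.00183 and 0.0015 against 0.000534 and 0.000283 with the filter. The cause was not tested. With samples left out in turn the liver difference was 2.40 to 3.43 for Tceal5 and 4.66 to 6.35 for Defb1, and the lung difference for Defb1 was 2.02 to 3.87. With the mouse as replicate block, the liver effect minus the lung effect was 2.85 for Tceal5, -0.97 for Obp2a and 1.71 for Defb1, no call for these genes changed, and genes called over the table rose from 1448 to 2607.

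Genes called in the liver numbered 636, against 2351 with DESeq2, 1120 with library totals and 73 to 1599 with 1 sample left out (73 without control 168, 1599 without A3B liver 49). In the pancreas they numbered 6093, against 13683 with library totals, of which 13473 were higher, and 3829 to 5820 with 1 sample left out (3829 without control 45). Library totals moved the median over all genes from 0.21 to 0.67 in the liver and from 0.09 to 2.29 in the pancreas. With DESeq2 in the liver, 3 lipocalins were higher and 4 lower, and 2 synaptotagmins were higher and 2 lower. Antimicrobial genes numbered 4 higher and 2 lower, and 1 SNARE gene was lower. Over all genes 1290 of 24460 were higher and 1061 lower. With DESeq2 in the pancreas, 3 lipocalins were higher and 2 lower, 6 synaptotagmins higher and 5 lower, and 7 SNARE genes higher and 5 lower. Over all genes 3662 of 26172 were higher and 3428 lower. With library totals in the liver, 2 lipocalins were higher and 1 lower, and 2 antimicrobial genes were higher, where 879 of 17365 genes were higher and 241 lower. With library totals in the pancreas, 7 Tceal and Bex genes were higher and 0 lower, 9 lipocalins were higher and 0 lower, 18 synaptotagmins were higher and 1 lower, 1 beta-defensin was higher, 13 antimicrobial genes were higher and 2 lower, and 23 SNARE genes were higher and 0 lower. The cause of these shifts was not tested. Depth limits Tceal5 in the pancreas and Syt8 in the liver, where counts were near the limit of 3.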
